A study of Homo sapiens with 2 samples.

Results

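NF-kB is a family of dimeric transcription factors, and the genes described here are 10 of the 26447 gene symbols measured: the subunit genes NFKB1, NFKB2, RELA and RELB, the inhibitor genes NFKBIA and NFKBIE, the feedback regulators TNFAIP3 and TNIP1, and the target genes BIRC3 and ICAM1. They were chosen by symbol as components and textbook targets of the pathway, and all 10 were found in both libraries and passed the filter on low values, a mean of at least 1 CPM. RNA sequencing compared 2 libraries of the human prostate cancer line C4-2B ENZR, which resists the antiandrogen drug enzalutamide and was grown in 20 µM of it. The shControl library came from cells with a lentiviral non-targeting hairpin (genotype labelled WT), and the shNRP2 library came from cells in which a lentiviral hairpin against the coding region of NRP2, a co-receptor for semaphorins and VEGF ligands, had been expressed. Both lines went through antibiotic selection, and a single hairpin is described for NRP2. Each group holds 1 library, so there is no spread between replicates, the conditions are compared without a p-value, and every interval covers counting error only.

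In resting cells NF-kB dimers are held in the cytoplasm by IkB proteins. In the canonical route, receptors such as those for TNF or interleukin-1 activate the IKK complex, IkB is degraded, and dimers of RELA with p50, the product of NFKB1, enter the nucleus. In the alternative route the kinase NIK leads to processing of the NFKB2 product p100 to p52, which acts with RELB. The factors bind kB sites in DNA, and several of their target genes encode their own inhibitors and subunits, which makes the response limit itself. RNA levels do not measure IkB degradation, p100 processing or nuclear entry.

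The members' own promoters show where kB sites lie relative to the annotated starts. The RefSeq promoter table (GRCh38.p14), with 250 bases before and 50 bases after each start, held 8 of the 10 members in 13 windows; RELB and NFKBIE had no entry. The kB consensus, searched on both strands with overlapping matches merged, was found in 7 of these 13 windows, belonging to 6 of the 8 members. It was found in 11.3% of all 35116 windows in the table and for 13.3% of the 27305 genes. The 30-base stretches that hold these matches are shown on the strand of each gene, with the match in capitals, because kB sites are the DNA elements that the family binds. The ICAM1 line shows a variant sequence outside the consensus.
NFKB1, start 1 (chr4:102501301-102501330, + strand): gacgtcagtGGGAATTTCCAgccaggaagt
NFKB2, start 2 (chr10:102394462-102394491, + strand): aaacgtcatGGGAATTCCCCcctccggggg
NFKB2, start 2 (chr10:102394490-102394519, + strand): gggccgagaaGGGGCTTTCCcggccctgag
NFKB2, start 3 (chr10:102395519-102395548, + strand): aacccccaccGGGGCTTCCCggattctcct
NFKB2, start 3 (chr10:102395674-102395703, + strand): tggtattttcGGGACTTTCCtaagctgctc
NFKBIA (chr14:35404811-35404840, - strand): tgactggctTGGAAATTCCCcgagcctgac
TNFAIP3 (chr6:137867188-137867217, + strand): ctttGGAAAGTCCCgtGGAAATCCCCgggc
TNIP1, start 1 (chr5:151081057-151081086, - strand): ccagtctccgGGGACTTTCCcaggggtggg
BIRC3 (chr11:102317275-102317304, + strand): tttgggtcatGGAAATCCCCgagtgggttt
BIRC3 (chr11:102317339-102317368, + strand): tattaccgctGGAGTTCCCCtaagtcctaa
ICAM1 (chr19:10270923-10270952, + strand): tgctttagctTGGAAATTCCggagctgaag

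The sequence GGGACTTTCC, the kB site of the immunoglobulin kappa enhancer that gave the family its name, was present in TNIP1 at -42, in NFKB2 at -21 from its start 3 and, on the opposite strand, in TNFAIP3 at -67. It occurred in 0.191% of all windows. The ICAM1 window held no match to the consensus but held TGGAAATTCC, the known variant site of that gene, at -187. The same 10 bases begin 1 base before the consensus match of NFKBIA and, on the opposite strand, overlap that of NFKB1, and in those lines the capitals cover both. They were in 0.117% of all windows. For the search, GGGACTTTCC was taken from the TNIP1 window and TGGAAATTCC from the NFKBIA window, so the matches in those windows were given in advance. Because TGGAAATTCC is the known ICAM1 site, its match in the ICAM1 window was not an independent find either. The share over all windows does not test these matches. The RELA windows held none of these sequences. Starts are numbered in the direction of transcription, position -1 is the base before the start, and a match is a description of letters in this window only.

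**Figure D1:**
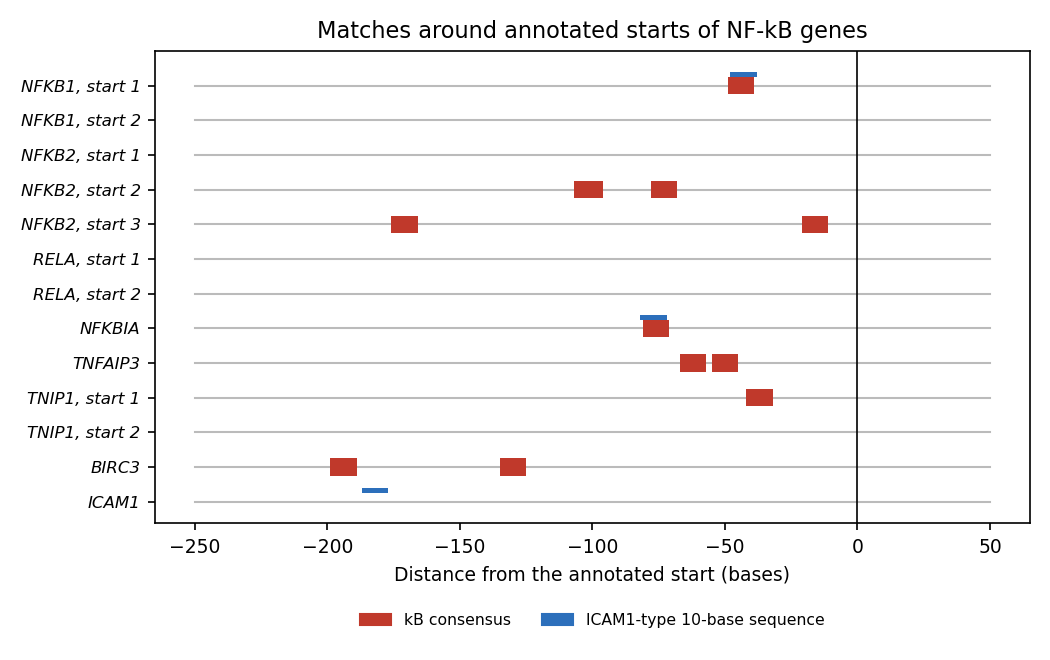
Positions of sequence matches in the 13 annotated promoter windows of 8 NF-kB genes. The horizontal axis is the distance from the annotated start in bases, red blocks are kB consensus matches, blue bars are matches to the 10 bases of the ICAM1 site, and 7 windows carry a red block, all of them before the start.

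Among the subunits, NFKB2 was higher and NFKB1 lower in the shNRP2 library, while RELA was nearly level. NFKB2, which encodes p100 and its product p52, stood at 99.0 CPM in the shControl library and 139 CPM in the shNRP2 library. Its level was 1.41-fold higher (95% counting interval 1.33 to 1.49), from 2034 and 2953 reads. NFKB1, which encodes p105 and its product p50, stood at 55.4 and 42.3 CPM. It was 1.31-fold lower in the shNRP2 library (1.20 to 1.43), from 1137 and 897 reads. The RNAs of NFKB1 and NFKB2 thus differed between the libraries in opposite directions.

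RELA, the p65 subunit with a transactivation domain, stood at 106 and 113 CPM, a ratio of 1.07 (1.01 to 1.13). With both columns set to equal sums this ratio was 1.01 (0.950 to 1.07), an interval that holds no difference. RELB, the partner of p52, stood at 5.84 CPM in the shControl library and 8.40 CPM in the shNRP2 library. It was 1.44-fold higher (1.13 to 1.83), but this rests on 120 and 178 reads.

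Read ratios of gene pairs within a library do not depend on how the library is scaled, and 11 were computed, for pairs chosen after the values were seen. The reads of NFKB2 over those of NFKB1 were 1.79 in the shControl library and 3.29 in the shNRP2 library, a ratio that was 1.84 times as large (1.66 to 2.05). The ratio of NFKB2 to RELA was 1.32 times as large (1.22 to 1.43), and that of RELB to RELA 1.35 times (1.06 to 1.73). The ratio of NFKB2 to RELB was 17.0 and 16.6, and its factor of 0.979 had an interval (0.764 to 1.25) that includes 1. The ratio of NFKB1 to RELA was 0.523 in the shControl library and 0.375 in the shNRP2 library.

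Per kilobase of the longest principal transcript in GENCODE 29, RELA was the most abundant subunit in the shControl library and NFKB2 in the shNRP2 library. RELA was at 39.2 CPM per kb in the shControl library and 41.8 in the shNRP2 library. NFKB2 was at 31.9 and 44.9 CPM per kb. NFKB1 was at 13.6 and 10.4, and RELB at 2.55 and 3.66. The ratio of NFKB2 to RELA per kb in the shNRP2 library was 1.07 (1.02 to 1.13). Along the order of all 10 genes per kb, each gene was above the next beyond counting error in both libraries, except RELB over BIRC3 in the shControl library, with a ratio of 1.03 (0.823 to 1.28). Of the summed CPM per kb of all 5 subunit genes, REL included, NFKB2 made up 36.1% in the shControl library and 44.3% in the shNRP2 library, and NFKB1 15.3% and 10.2%. Which transcripts these cells use, and hence the true lengths, was not measured here.

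**Figure D2:**
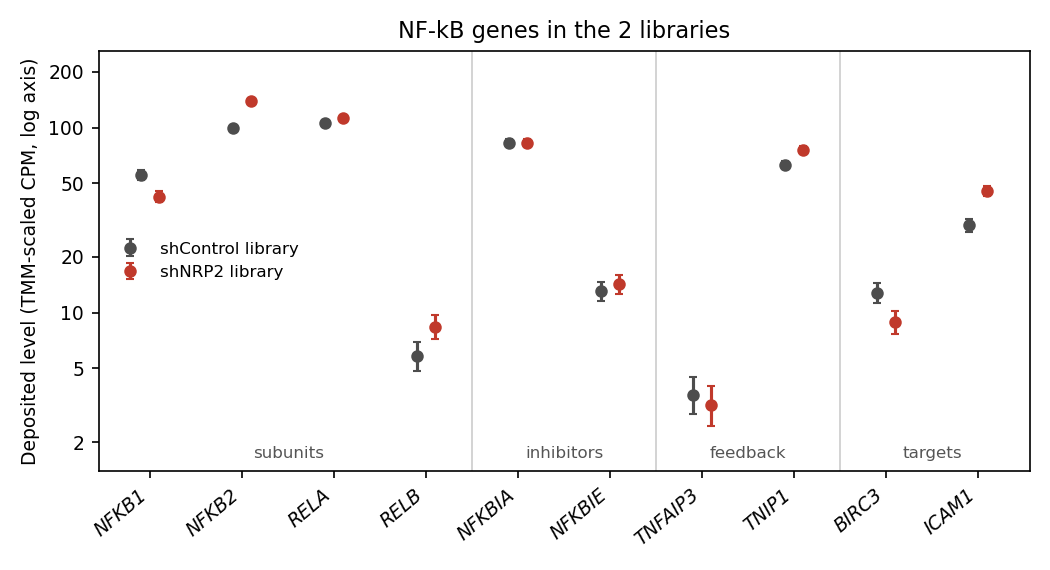
Deposited level of each of the 10 NF-kB genes in the shControl library (grey) and the shNRP2 library (red), on a log axis of CPM, with exact Poisson 95% counting intervals. NFKB2 (99.0 and 139 CPM) and ICAM1 (29.6 and 45.4 CPM) are higher in the shNRP2 library, NFKB1 and BIRC3 are lower, and the points of NFKBIA lie at the same height.

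The 2 inhibitor genes were level within counting error. NFKBIA encodes IkB-alpha, the inhibitor that NF-kB induces again after each activation, and stood at 83.0 and 82.5 CPM, from 1704 and 1749 reads. Its ratio was 0.994 (0.930 to 1.06), and with equal column sums it was 0.940 (0.879 to 1.01). NFKBIE, which encodes the related inhibitor IkB-epsilon, stood at 13.0 and 14.2 CPM, a ratio of 1.09 (0.923 to 1.29). Per kb, NFKBIA was the most abundant of the 10 genes in both libraries, at 53.2 and 52.9 CPM per kb, against 5.06 and 5.52 for NFKBIE.

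The feedback regulators act together at the protein level, since TNIP1 (ABIN1) binds TNFAIP3 (A20), an enzyme that edits ubiquitin chains and ends signalling to IKK. TNFAIP3 was the lowest of the 10 genes per kb, at 0.761 CPM per kb in the shControl library and 0.667 in the shNRP2 library. Its deposited levels were 3.60 and 3.16 CPM, from 74 and 67 reads, a ratio of 0.877 whose interval runs from 0.621 to 1.24. TNIP1 stood at 62.8 and 75.3 CPM, 1.20-fold higher in the shNRP2 library (1.11 to 1.29). The ratio of TNIP1 to TNFAIP3 reads was 17.4 and 23.8, and the interval of its factor (0.961 to 1.95) includes 1.

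The 2 target genes differed in opposite directions. ICAM1, an adhesion molecule that leukocyte integrins bind and that TNF induces, stood at 29.6 CPM in the shControl library and 45.4 CPM in the shNRP2 library, from 609 and 963 reads. It was 1.53-fold higher (1.38 to 1.70). BIRC3 encodes cIAP2, a ubiquitin ligase that joins the TNF receptor complex and, with TRAF2 and TRAF3, keeps NIK low. It stood at 12.9 and 8.87 CPM, 1.45-fold lower in the shNRP2 library (1.20 to 1.76), from 264 and 188 reads. The reads of ICAM1 over those of BIRC3 were 2.31 and 5.12, 2.22 times as large in the shNRP2 library (1.79 to 2.76). BIRC2, the neighbouring paralog that encodes cIAP1, stood at 46.3 and 41.4 CPM, and the ratio of BIRC3 to BIRC2 reads was 1.29 times smaller in the shNRP2 library (1.05 to 1.60).

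The genes whose windows hold the kB consensus did not share a direction. NFKB2 and TNIP1 were higher in the shNRP2 library, NFKB1 and BIRC3 lower, and for NFKBIA and TNFAIP3 the counting interval included no difference. Binding at these sites was not measured in this series.

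Against the whole transcriptome, 1 of the 10 genes passed 1.5-fold, although the median size of change was larger for the 10 genes than for all genes. The change was taken as log2((shNRP2 CPM + 1)/(shControl CPM + 1)), which understates changes of low genes, and genes past 1.5-fold on that scale were called higher or lower. Of the 10 genes, 1 was higher (ICAM1, log2 change 0.60) and 0 were lower, where 5.78% of 13316 compared genes were higher and 3.57% lower, so a count of 1 is near the background. With equal column sums the change of ICAM1 was 0.52 and the count was 0, and over all genes 587 were higher and 646 lower in place of 769 and 476. The median log2 change was 0.10 for the 10 genes and 0.03 for all compared genes. The median size of the change, regardless of direction, was 0.32 for the 10 genes and 0.19 for all. By the counting interval of the ratio, 5 of the 10 genes were higher and 2 lower, where 32.7% of all genes were higher and 24.0% lower by that rule. A conditional exact binomial test on whole reads, with Benjamini-Hochberg adjustment, placed 4 of the 10 higher and 2 lower, RELA no longer among them, and called 6954 of 13316 genes; it compares these 2 libraries, not the conditions.

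**Figure D3:**
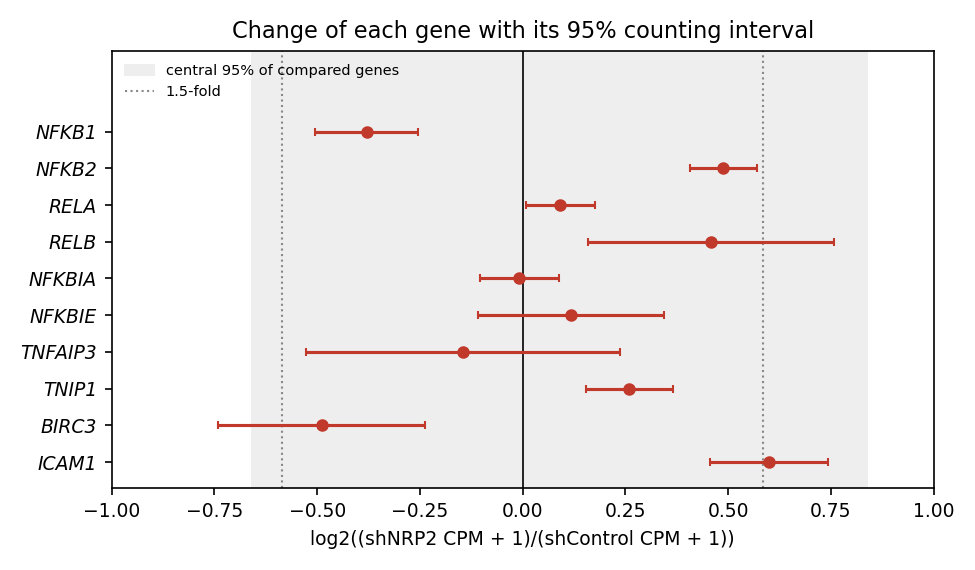
Log2 change of each NF-kB gene on the log2(CPM + 1) scale, with its 95% counting interval (bars), the 1.5-fold threshold (dotted) and the central 95% of all compared genes (grey band, -0.66 to 0.84). All 10 points lie inside the band, ICAM1 (0.60) lies just past the dotted line, and the intervals of NFKBIA, NFKBIE and TNFAIP3 cross 0.

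By rank, ICAM1 stood at percentile 94.4 of the log2 changes of all compared genes, NFKB2 at 92.0, RELB at 91.1 and TNIP1 at 80.1. BIRC3 stood at percentile 5.59 and NFKB1 at 9.21. NFKBIA was among the least different genes, at rank 12982 of 13316 by size of change. The members therefore spread from percentile 5.59 to percentile 94.4, on both sides of the centre of the distribution.

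**Figure D4:**
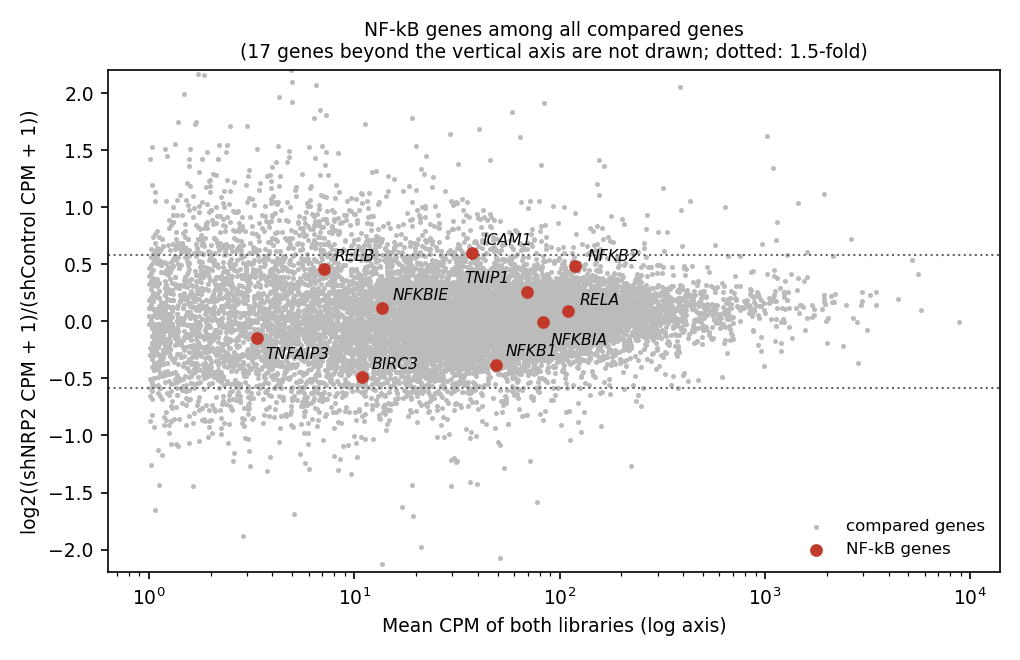
Log2 change against mean CPM of both libraries (log axis) for 13316 compared genes (grey) and the 10 NF-kB genes (red, named); dotted lines mark 1.5-fold and 17 genes lie beyond the vertical axis. The named genes lie on both sides of 0, from -0.49 for BIRC3 to 0.60 for ICAM1.

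The remaining subunit and IkB genes included 2 that were lower. REL, the c-Rel subunit best known from lymphocytes, stood at 13.9 and 8.49 CPM, 1.63-fold lower in the shNRP2 library (1.35 to 1.98). NFKBIZ, a nuclear IkB protein that helps induce secondary response genes, stood at 7.94 and 4.86 CPM, also 1.63-fold lower (1.27 to 2.11). Of the 5 genes on this list, 0 were higher and these 2 lower at 1.5-fold, with a median log2 change of -0.14, where 3.57% of all compared genes were lower. With a pseudocount of 5 CPM, or at 2-fold, 0 of the 5 were lower. NFKBIB, the IkB-beta gene, stood at 37.9 and 38.3 CPM, NFKBID at 4.04 and 3.58 CPM, and BCL3, a nuclear IkB protein that works with p50 and p52 dimers, at 11.3 and 13.4 CPM (ratio 1.19, 0.994 to 1.42). REL and NFKB1 were thus the subunit genes with lower levels, and NFKB2 and RELB those with higher levels.

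The kinases, adaptors and ubiquitin enzymes of the pathway, IKK genes included, had 1 higher and 1 lower gene among 34 compared of 35 listed. Over all compared genes, 5.78% were higher and 3.57% lower. The median log2 change of this list was -0.01, beside 0.03 for all compared genes. MYD88, the adaptor of Toll-like and interleukin-1 receptors, stood at 62.6 and 35.5 CPM, 1.76-fold lower in the shNRP2 library (1.61 to 1.93). MALT1, the paracaspase that links BCL10 complexes to IKK, stood at 22.8 and 35.6 CPM, 1.56-fold higher (1.39 to 1.76), and with equal column sums it was no longer counted. The most abundant genes on the list were IRAK1 (389 and 408 CPM), TAX1BP1 (205 and 273 CPM), UBE2N (166 and 168 CPM) and RNF11 (152 and 197 CPM). TAX1BP1 and RNF11 were 1.33-fold (1.28 to 1.39) and 1.29-fold (1.23 to 1.35) higher. Those values are below the 1.5-fold threshold.

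Among 16 receptor genes, 12 were compared, of which 2 were higher and 0 lower, where 5.78% of all compared genes were higher. TNFRSF1B, the TNF receptor TNFR2, stood at 0.730 and 3.63 CPM, from 15 and 77 reads, 4.97-fold higher in the shNRP2 library (2.84 to 9.31). It passed the filter through the shNRP2 library alone, and with a filter at a mean of 5 CPM 1 receptor was higher. TNFRSF11A, the receptor RANK, stood at 6.96 and 13.8 CPM, 1.98-fold higher (1.61 to 2.43). The 4 most abundant receptor genes were closer to level: LTBR, the lymphotoxin beta receptor, stood at 174 and 197 CPM, TNFRSF10B at 153 in both, TNFRSF1A, the main TNF receptor, at 79.0 and 83.4 CPM, and IL17RA at 59.6 and 65.2 CPM.

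Ligand genes had few reads. Of 13 listed, 12 were under the filter and 6 had 0 reads in both libraries, which allows up to 0.146 CPM in the shControl library and 0.141 CPM in the shNRP2 library. TNFSF15 (TL1A) was the 1 ligand compared, at 14.3 and 5.05 CPM, 2.83-fold lower in the shNRP2 library (2.26 to 3.56). The next most abundant were TNFSF10, the death ligand TRAIL, with 9 and 20 reads, TNF with 14 and 9 reads, and LTB with 8 and 7 reads. The ratio for TNF, 0.623, had an interval from 0.238 to 1.54.

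Of 44 other NF-kB target genes, 24 were compared, of which 7 were higher and 1 lower, where 5.78% of all compared genes were higher and 3.57% lower. The filter bears on these counts: C3, SAA1 and PLAU passed it through the shNRP2 library alone. Without a filter 7 of the 44 were higher and 3 lower, where 908 of all 26447 genes were higher and 567 lower. The lower gene was the chemokine CCL20, at 26.5 and 7.88 CPM, 3.36-fold lower in the shNRP2 library (2.82 to 4.02). The higher genes included C3, complement component 3, at 0.730 and 4.06 CPM, 5.55-fold higher (3.19 to 10.4), and TNFAIP8, at 3.99 and 9.76 CPM, 2.45-fold higher (1.88 to 3.20). CSF1, the macrophage growth factor, stood at 4.43 and 9.01 CPM, PSMB9 at 3.51 and 6.46 CPM, and IL32 at 5.16 and 8.54 CPM. SAA1 (13 and 51 reads, uncertain because SAA2 is a near-identical copy) and the protease PLAU (12 and 41 reads) complete the 7. All 7 were at low levels, under 10 CPM in both libraries, and 3 of them were counted with a filter at a mean of 5 CPM. The most abundant targets were SDC4 (110 and 142 CPM), XIAP (102 and 99.8 CPM), BCL2L1 (99.5 and 102 CPM) and TNFAIP2 (58.5 and 80.1 CPM).

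**Figure D5:**
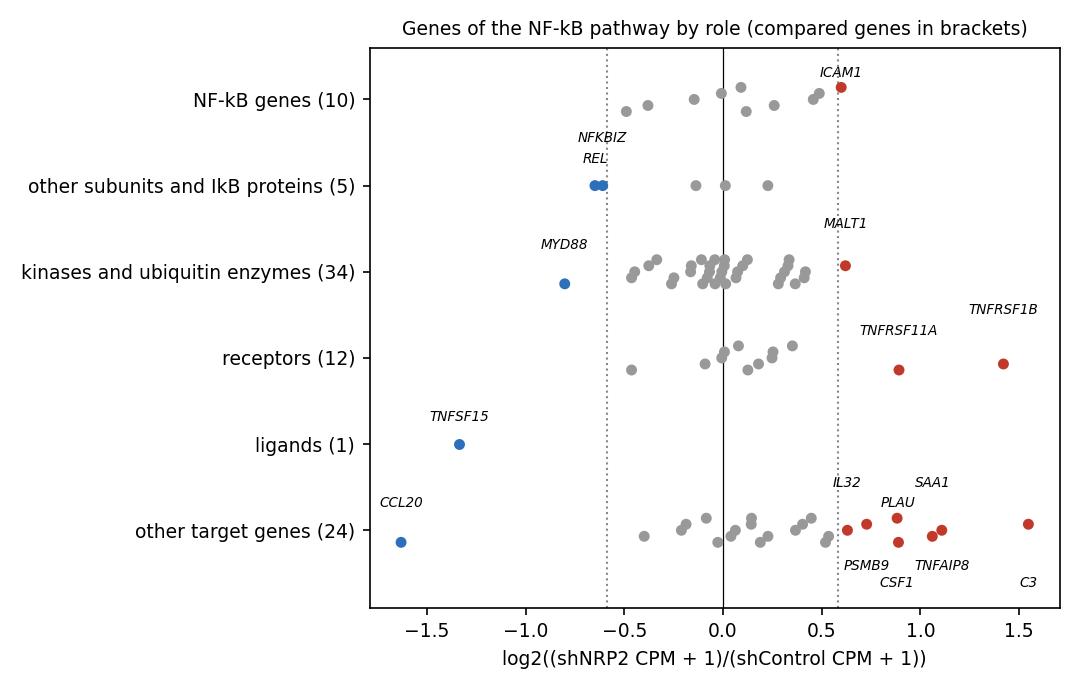
Log2 change of the compared genes of each list (grey: within 1.5-fold, red: higher, blue: lower in the shNRP2 library), with dotted lines at 1.5-fold. Of the 34 kinases and ubiquitin enzymes, MYD88 and MALT1 lie outside the dotted lines, and among the other target genes CCL20 lies farthest to the left and C3, which passed the filter through the shNRP2 library alone, farthest to the right.

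The 2 libraries held 21052178 and 22992304 reads on genes. NRP2, the targeted gene, had 20 reads in the shControl library and 7 in the shNRP2 library, 2.95-fold lower (1.20 to 8.26). At 0.974 and 0.330 CPM NRP2 lay under the filter on low values, and its log2 change of -0.57 was short of 1.5-fold. The prostate epithelial markers EPCAM, KRT18, FOXA1, KRT8 and HOXB13 were detected, from 121 CPM for EPCAM to 511 CPM for HOXB13 in the shControl library. Of the leukocyte markers, which matter here because immune cells carry high NF-kB target levels, PTPRC, CD3E and CD14 had at most 5 reads in either library, LYZ had 6 and 17 reads, and CD68 stood at 6.67 and 9.95 CPM. Endothelial markers summed to 3.75 and 3.87 CPM and fibroblast markers to 45.4 and 35.7 CPM, mostly COL1A1, with DCN at 0 reads in both. The part of these levels in the differences above was not tested.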

How the data were processed

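Each library has 1 deposited table, which gives a signal for every gene symbol that the authors scaled by TMM to CPM, per the file headers and names. The submitters' processing notes name bcl2fastq 2.17, Bowtie2 2.1.0, RSEM 1.2.15, edgeR and build hg19; the annotation and any strand setting are not stated there, so reads of overlapping genes cannot be told apart. All values (100%) were whole multiples of 1 read (0.0487 and 0.0472 CPM) within 0.01 read. Whole counts were therefore recovered and are called reads here. If they are rounded RSEM estimates, the intervals leave out error in assigning reads to genes. The columns sum to 1024943 and 1084413. If TMM alone set these sums, the implied factors are 0.976 and 0.922, whose product of 0.900 differs from the 1 that edgeR gives for a set of libraries, so the relative scaling of the columns is in doubt; values were used as deposited, with equal sums as an alternative. Date-like symbols (28, with 0.181% and 0.184% of the reads) were left out. Ratios carry conditional binomial (Clopper-Pearson) 95% intervals, levels exact Poisson ones, and limits for 0 reads use 3 reads. Calculations used Python 3.11.15, numpy 2.4.6 and scipy 1.17.1 and were tested on simulated data. Named genes are the 10 members, NRP2, the whole subunit and IkB list, and in each other list those past 1.5-fold and the 4 most abundant; BIRC2 and, in the closing section, CXCL8 and CCL2 were named after their values were seen, and marker genes as a check of cell type, some of which are not reported here. The members, lists and settings were chosen with earlier results of these data known. Alternatives were other pseudocounts, filters, scalings and thresholds. Sequences are RefSeq's, matched by symbol; no hg19 coordinate was used.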

Additional observations from a re-analysis of the deposited data

How the results depend on the processing

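Neither a pseudocount nor a filter can reverse the direction of a change, so only the scalings could have altered it. Under each scaling tried, the direction of all 10 genes was the same. Under every pseudocount, filter and scaling in which a gene was compared, its change stayed within its counting interval. TNFAIP3 was not compared at a mean of 5 CPM. ICAM1 ranged from 0.52 to 0.61 and, on the log2 scale with a pseudocount, was the only one of the 10 to cross 1.5-fold. With a pseudocount of 5 CPM, equal column sums, a median log2 ratio of 0 or a 2-fold threshold, 0 of the 10 were higher. The plain ratios with equal column sums differed from this. BIRC3 stood at 0.652 (0.538 to 0.789), past 1.5-fold lower, and ICAM1 at 1.45 (1.31 to 1.61), short of 1.5-fold. Counting intervals gave 5 higher and 2 lower, and with equal column sums, chosen after seeing the data, 4 higher and 2 lower, as did the binomial test (4 and 2), also added later. Over all genes, higher and lower counts were 329 and 159 with a pseudocount of 5 CPM, 465 and 310 with a filter at 5 CPM, 194 and 70 at 2-fold, 4360 and 3199 by counting intervals, 3085 and 4585 by intervals at equal column sums, and 4028 and 2926 by the binomial test.

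For the other lists, a pseudocount of 5 CPM left 0 lower subunit and IkB genes, 0 higher kinases and 2 higher targets. At that setting 329 of 13316 compared genes were higher and 159 lower. Without a filter 3 targets were lower, where 567 of all 26447 genes were. A filter at 5 CPM left 1 higher receptor and 3 higher targets, where 465 genes were higher among fewer compared. Equal column sums left 0 higher kinases, where 587 genes were higher. At 2-fold 0 subunit and IkB genes and 0 kinases were lower, 0 kinases, 1 receptor and 3 targets higher. At that threshold 194 of 13316 compared genes were higher and 70 lower. Counting intervals gave 11 higher and 8 lower of 34 kinases, 5 and 1 of 12 receptors, and 12 and 4 of 24 targets. By that rule 32.7% of all compared genes were higher and 24.0% lower. No paired analysis was possible because each group holds 1 library. With 1 library per group, differences between cultures or lines cannot be told apart from the hairpin, and read depth limits TNFAIP3, RELB and BIRC3 most.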

Other observations

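The chemokine genes CXCL8 and CCL2 lay under the filter on low values and were looked at after their values were seen. CXCL8, which encodes interleukin-8, had 19 reads in the shControl library and 5 in the shNRP2 library, 3.92-fold lower (1.42 to 13.4). CCL2, a monocyte attractant, had 31 and 8 reads, 4.0-fold lower (1.80 to 10.1). With CCL20 these were the 3 target genes counted as lower when no filter was applied, and none of the 3 is among the 10 genes described above.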
